A study of Mus musculus with 9 samples.

Results

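The arms of the mouse hairpins miR-574 and miR-671 were followed in cultured hippocampal neurons after NMDA and after bicuculline. They are mmu-miR-574-5p, mmu-miR-574-3p, mmu-miR-671-5p and mmu-miR-671-3p, found by their exact array names and written without the species prefix from here on, and make up 4 of the 650 miRNAs on the array. They were picked with their NMDA values already known, so every NMDA value here is a description without a test, and the comparison of bicuculline with control is the one that was tested. The study looked for miRNAs raised by NMDA and not by bicuculline, and both 5p arms are in its list. A flat bicuculline result of the 5p arms is therefore no independent evidence. The neurons came from C57BL/6 mice, were prepared on postnatal day 1 and had grown for 10 days in vitro. Control cultures were left untreated, NMDA cultures received 20 μM NMDA and bicuculline cultures received 50 μM bicuculline, both for 4 h by the labels, while the methods describe a brief exposure to NMDA that was washed out before the cells went back to the incubator. The paper's running text names a higher NMDA dose for the profiled cultures, with the co-agonist glycine present, while the legend of its miRNA list gives the dose of the labels. Each group had 3 arrays from independent cell preparations, 9 arrays in all on 2 slides, and each group had arrays on both slides. The first slide held replicates 1 and 2 of control and NMDA and replicate 1 of bicuculline, and the second slide held the others.

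An miRNA gene is transcribed as a precursor that folds into a hairpin. Drosha cuts the hairpin from the primary transcript, Dicer removes the loop, and 1 arm or both can be loaded into an Argonaute protein, where the seed near the 5′ end guides binding to target mRNAs. Because both arms leave the same precursor in equal numbers, their levels can differ through loading and decay. NMDA added to the bath opens NMDA receptors all over the neuron, including those outside synapses that are linked to excitotoxic death, whereas bicuculline blocks GABA-A receptors and drives bursts of synaptic firing. In other systems miR-574-5p has been described as a decoy for the RNA-binding protein CUGBP1, and miR-671-5p directs cleavage of the circular RNA Cdr1as, which is abundant in neurons.

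The mature sequences are shown because the arms differ in base composition and the seed sets the targets of each. All 4 matched RefSeq (GRCm38.p6) by name, and the capitals mark the seed, bases 2 to 8 from the 5′ end:
miR-574-5p: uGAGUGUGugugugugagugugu
miR-574-3p: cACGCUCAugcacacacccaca
miR-671-5p: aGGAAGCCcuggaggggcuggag
miR-671-3p: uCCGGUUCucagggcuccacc

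miR-574-5p is built almost wholly of G and U, which make up 91.3% of its 23 bases, and of miR-574-3p they make up 18.2%. miR-671-5p holds 52.2% G and miR-671-3p 23.8% G. The 4 seeds all differ, and among the 163 of 611 mouse miRNAs on the array whose name matched a RefSeq mature sequence exactly, 0 others carried any of them.

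The hairpins show where the arms lie in the precursor, with the arms in capitals. Mir574 lies on the plus strand at chr5:64970318-64970395, within the annotated spans of Fam114a1 and Tlr6, and Mir671 on the plus strand at chr5:24592114-24592211, within that of Chpf2. Whether these places are exonic or intronic was not read here:
miR-574: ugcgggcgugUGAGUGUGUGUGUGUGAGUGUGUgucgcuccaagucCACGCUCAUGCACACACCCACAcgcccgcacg
miR-671: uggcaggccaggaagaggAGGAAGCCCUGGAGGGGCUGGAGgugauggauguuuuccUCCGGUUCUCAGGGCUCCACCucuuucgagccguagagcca

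The arms are separated by 13 bases in the hairpin of 78 bases of miR-574 and by 16 bases in that of 98 bases of miR-671.

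Signals are given as a percent of the array scale, which is the 75th percentile of the probes measured on all arrays. The scanner software marks each spot that stands clear of background, and a probe counted as well above background if 50% or more of its spots had that mark. By this measure an array detected 162 to 221 miRNAs, and having 3 arrays a group limits the precision of every value. Replicate arrays correlated at r = 0.985 to 0.995 over 156 miRNAs detected throughout. Neurons, the labelled cell type, were read through 5 neuron-enriched miRNAs (miR-124, miR-9, miR-128, miR-138 and miR-218), all well above background on all arrays. No cell type is called from these miRNAs, and no marker list covered astrocytes. The summed signal of the 5 ranged from 3406% to 3432% in control neurons, from 3151% to 3379% after NMDA and from 3106% to 3385% after bicuculline. Its part in the results was not tested. Of the marker miRNAs of microglia, vessels and red blood cells, 0 were well above background on all arrays. The vascular miR-126-3p was so on 1 control, 2 NMDA and 2 bicuculline arrays. miR-338-3p of the oligodendrocyte list and miR-1 of the muscle list were well above background on all arrays. The others of these 2 lists, miR-219, miR-133a and miR-206, were so on 0 arrays. An array reads the RNA of the whole dish, so fewer cells of a type and less RNA per cell cannot be told apart.

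After NMDA the 5p arm of each hairpin was far brighter than in control neurons, and its 3p arm stayed at or near background. The signal of miR-574-5p was 6.15%, 7.36% and 12.2% on the control arrays and 60.4%, 91.8% and 93.1% on the NMDA arrays. All NMDA arrays lay above all control arrays, and the highest control array was the one on the second slide. The control mean was 8.58% ± 3.21 (SD, n = 3) and the NMDA mean 81.8% ± 18.5 (SD, n = 3), a 9.53-fold ratio. On the log2 scale with a floor at 7.94% of the array scale, the difference was 3.13, and it was 3.23 within the first slide and 2.93 within the second. The value of the second slide, here and for miR-671-5p, sets NMDA replicate 3 against control replicate 3 alone.

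miR-671-5p showed the same order of groups at a smaller size. Its signal was 8.68%, 6.81% and 11.7% on the control arrays and 39.1%, 52.4% and 50.6% on the NMDA arrays. Again no NMDA array overlapped the control arrays, and NMDA replicate 1 was the lowest of its group for both 5p arms. The control mean was 9.08% ± 2.49 (SD, n = 3) and the NMDA mean 47.4% ± 7.22 (SD, n = 3), a 5.22-fold ratio. The log2 difference was 2.33, with 2.45 within the first slide and 2.11 within the second. In control neurons both 5p arms were well above background on 1 of 3 arrays, control replicate 3, so these folds start from a level close to the limit of the array.

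The comparison took the 181 miRNAs detected on all 3 control arrays or on all 3 NMDA arrays. Both 5p arms were detected on 1 control array and on all 3 NMDA arrays. They thus entered only through the NMDA arrays, which favours a rise. Of all 181 miRNAs compared, 18 were raised over 1.2-fold by NMDA (9.94%), the 2 5p arms among them, and 2 were lowered (1.1%). On the signals of all 650 miRNAs, 68 had all 3 NMDA arrays above all 3 control arrays (10.5%), again with 2 of the 4 arms among them. With detection required on each of the 9 arrays, the count of 18 raised fell to 5 and no arm was left. The arms were picked on this contrast, so nothing is read from these counts. The fold of 1.2 is the lower limit named in the study's methods. With a log2 difference of 0.31, miR-212 lay just inside it, and miR-1224 at 0.24 just outside.

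**Figure D1:**
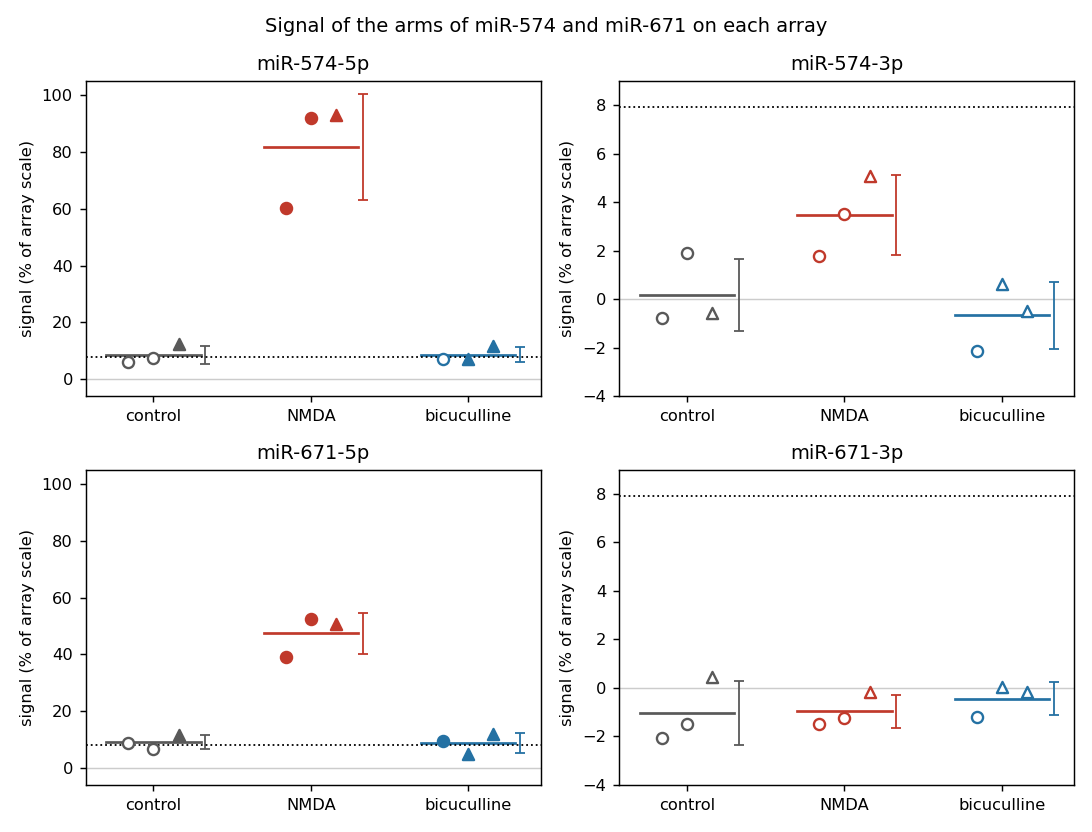
Signal in percent of the array scale (y axis) of each arm on the 3 arrays of each group (x axis), with different y ranges for 5p and 3p arms. Circles are arrays of the first slide and triangles of the second, filled where the miRNA's brightest probe was well above background. Horizontal lines are means, bars to their right the SD (n = 3), and the dotted line the floor at 7.94%. The NMDA arrays of the 5p arms lie between 39.1% and 93.1%, while every array of the 3p arms lies under the floor.

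The 3p arms were read at the edge of detection. The signal of miR-574-3p was −0.77%, 1.91% and −0.56% on the control arrays and 1.79%, 3.51% and 5.08% on the NMDA arrays, where values under 0 arise from background subtraction. Control replicate 2 and NMDA replicate 1 overlapped by a small margin. The control mean was 0.19% ± 1.49 (SD, n = 3) and the NMDA mean 3.46% ± 1.65 (SD, n = 3), a difference of 3.27% of the scale. For comparison, the 95th percentile of single negative-control spots was 2.5%, 2.79% and 2.08% on the NMDA arrays in the same order, and the brightest such spot of NMDA replicate 3 reached 3.06%. The arm lay above that percentile on NMDA replicates 2 and 3 and under it on replicate 1. Its signals there are means of 5 spots, which vary less than single spots. All signals of the arm were under the floor, so the log2 difference was 0 and no fold is given.

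miR-671-3p was not well above background on any array by any of its probes. Its signal was −2.08%, −1.5% and 0.47% on the control arrays and −1.48%, −1.25% and −0.18% on the NMDA arrays. The groups overlapped over nearly their whole range, with a difference of the means of 0.067% of the scale. Its level in these neurons was therefore not measured in any group, and a change under the floor could not be seen.

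The individual probes bear on these readings, since each array carried 2 probes for miR-574-5p and 4 for each other arm. For miR-574-5p, the NMDA arrays lay above the control arrays on 2 of 2 probes, and the dimmer probe gave 32.0% to 49.1% after NMDA against 4.34% to 7.46% in control neurons, a 7.94-fold ratio of the means. For miR-671-5p it was 4 of 4 probes, with ratios between 5.03 and 5.43. For miR-574-3p it was 1 of 4 probes. That probe read −1.62%, −0.71% and −0.58% on the control arrays and 1.9%, 4.05% and 6.65% on the NMDA arrays, and NMDA replicate 3 was the only array on which any probe of this arm was well above background. The other 3 probes had higher means after NMDA than in control neurons, by 2.25% to 3.27% of the scale, with overlapping arrays. Set against bicuculline, all NMDA arrays lay above all bicuculline arrays on 4 of 4 probes of miR-574-3p, on 2 of 2 of miR-574-5p, on 4 of 4 of miR-671-5p and on 0 of 4 of miR-671-3p, against 198 of the 1857 probes on the array (10.7%). For miR-671-3p and control it was 0 of 4 probes, with differences from −0.18% to 0.17%. Over the whole array, 181 of 1857 probes had all NMDA arrays above all control arrays (9.75%), and since the arms were picked on this contrast the counts are a description.

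**Figure D2:**
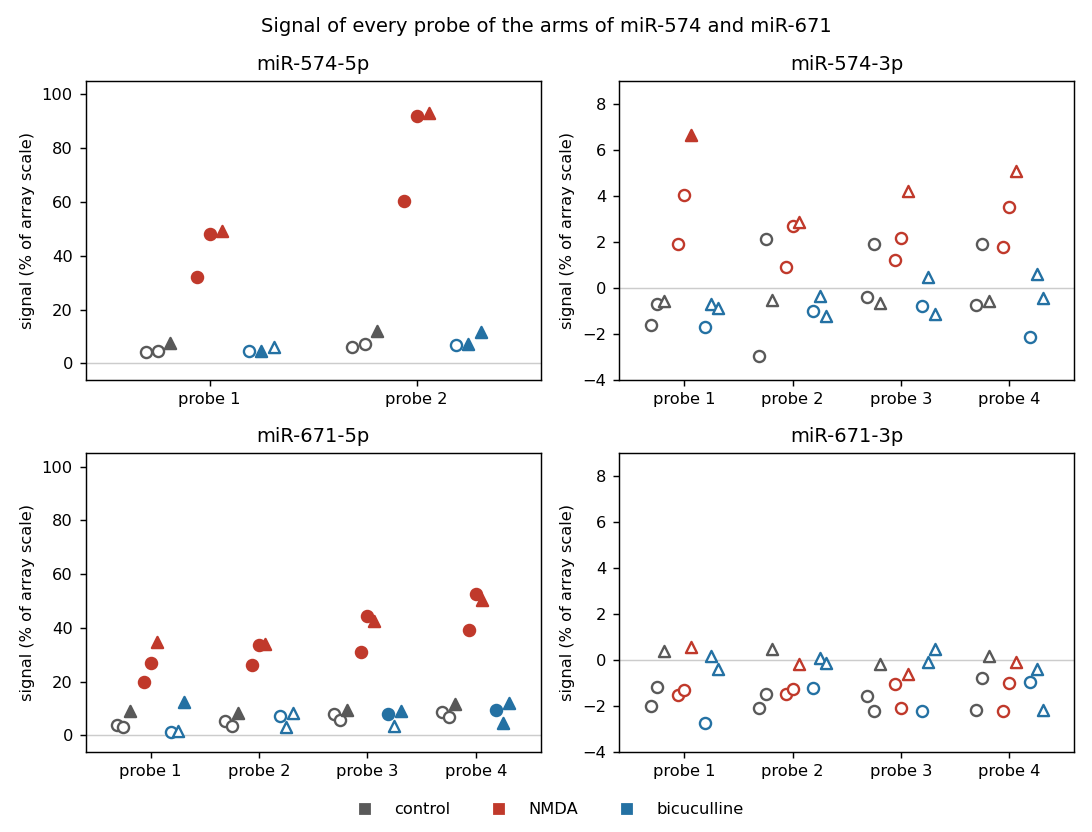
Signal in percent of the array scale (y axis) of every probe (x axis) of each arm on each array. Grey marks are control, red NMDA and blue bicuculline arrays, with circles for the first slide, triangles for the second and filled marks where the probe was well above background. All probes of the 5p arms separate NMDA from the other groups, and all 4 probes of miR-574-3p separate NMDA from bicuculline, but only the first separates NMDA from control. The probes of miR-671-3p separate no groups.

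Within each array the ratio of the 5p to the 3p arm restates the 5p arm. With the 3p arm at the floor on every array, the log2 ratio of miR-574 was 0, 0 and 0.62 on the control arrays and 2.93, 3.53 and 3.55 on the NMDA arrays, a change of 3.13. That of miR-671 was 0.13, 0 and 0.57 on the control arrays and 2.3, 2.72 and 2.67 on the NMDA arrays, a change of 2.33. A floored 3p arm makes these changes equal to those of the 5p arms by construction. They do not show whether the arms changed unequally, since these log2 values hide a change of a 3p arm under the floor. Nor do they give a level of 1 arm against the other.

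Both arms of 167 mouse hairpins were on the array, found by name, and they serve as the background of this pattern. Both arms were well above background on all 9 arrays for 18 hairpins. Of these, 0 had an arm raised over 1.2-fold by NMDA and 1 had an arm lowered, miR-139-3p, with a log2 difference of −0.39. The median absolute change of the arm ratio was 0.12 after NMDA and 0.10 after bicuculline. The 3 with the largest changes after NMDA were miR-433 at −0.28, miR-139 at 0.27 and miR-337 at −0.24, each with its 5p arm or unstarred strand over the other. The ratios of miR-574 and miR-671 are not set beside these, because only 1 of their arms was measured.

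On all NMDA arrays exactly 1 arm was well above background for 59 hairpins, both arms for 21 and neither for 87. In 5 of the 59 the measured arm was raised over 1.2-fold by NMDA. These were miR-574-5p, miR-671-5p, miR-466f-3p with a log2 difference of 1.5, miR-1897-5p with 1.14 and miR-188-5p with 0.59. The last 3 were named after their values were seen. In each of the 5 the other arm was not well above background on all NMDA arrays and lay at the floor in the log2 values, so the data hold no hairpin in which both arms were measured and either was raised by NMDA over this fold.

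**Figure D3:**
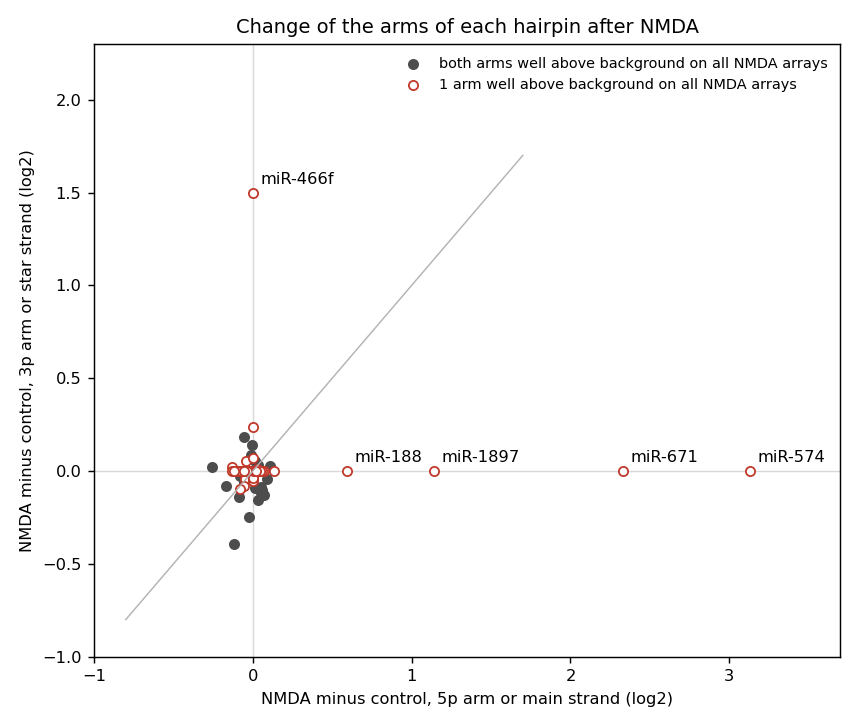
Change of the 3p arm or star strand (y axis, log2) against that of the 5p arm or main strand (x axis, log2), NMDA minus control, for the 80 hairpins with an arm well above background on all NMDA arrays. Filled points are the 21 hairpins with both arms measured and open points the 59 with 1, and the line marks equal change. miR-671 at 2.33 and miR-574 at 3.13 lie on the horizontal axis because their 3p arms were at the floor.

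After bicuculline the arrays of each arm overlapped those of control neurons. miR-671-5p was the only arm to enter the test, which took the 161 miRNAs detected on all 3 control arrays or on all 3 bicuculline arrays. The arm was detected on 1 control array and on all 3 bicuculline arrays, so it entered only through the bicuculline arrays. Its signal was 9.58%, 4.79% and 11.9% on the bicuculline arrays, a mean of 8.76% ± 3.64 (SD, n = 3) against 9.08% ± 2.49 (SD, n = 3) in control neurons, and the groups overlapped fully. The log2 difference was 0.05 with a standard error of 0.19 (limma, adjusted p = 0.999, unadjusted p = 0.779), and its 95% interval ran from −0.38 to 0.49, or 0.77-fold to 1.4-fold. The interval thus leaves out a change as large as the log2 difference of 2.33 after NMDA and holds changes of 1.2-fold in either direction. With the replicate number as a block the interval was 0.91-fold to 1.18-fold. The numbers were not taken to pair these arrays, so a 1.2-fold change is not left out on this ground. In each group 1 of the 3 arrays, replicate 2, was set to the floor, and among the control arrays only replicate 3 detected the arm, so both intervals describe floored values in part rather than the RNA alone. The slides differed in sign, with 0.21 within the first slide and −0.27 within the second. The first held a single bicuculline array and the second a single control array. limma called 1 of the 161 miRNAs (0.621%), which was higher after bicuculline and not an arm of these hairpins. Of the 161, 2 were raised over 1.2-fold (1.24%) and 3 lowered (1.86%), and miR-671-5p was in neither count.

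The signal of miR-574-5p was 6.97%, 7.28% and 11.6% on the bicuculline arrays, with a mean of 8.62% ± 2.6 (SD, n = 3) against 8.58% ± 3.21 (SD, n = 3) in control neurons. It was well above background on 2 of 3 bicuculline arrays and 1 of 3 control arrays, which kept it out of the test. With every miRNA let in, its log2 difference was −0.02 with a standard error of 0.27 (limma, adjusted p = 0.964 over 650 miRNAs), and its 95% interval ran from −0.78 to 0.73. As 2 arrays of each group were set to the same floor, this interval describes the floored values rather than the RNA.

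The 3p arms were not well above background on any bicuculline array. The signal of miR-574-3p was −2.14%, 0.61% and −0.47%, and that of miR-671-3p was −1.21%, 0.058% and −0.15%. Both overlapped the control arrays, and their log2 values were all at the floor and could not be tested. The ratio of the arms changed by −0.02 for miR-574 (exact permutation test, two-sided, p = 1) and by 0.05 for miR-671 (exact permutation test, two-sided, p = 0.8), with an adjusted p of 1 over the 2 hairpins for both, where 3 arrays against 3 cannot give a p under 0.1. With a floored 3p arm, each of these ratio changes repeats the change of the other arm of its hairpin by construction. The permutation test thus reads that arm alone, in values partly at the floor themselves. It cannot show whether the arms changed unequally, and nothing is read from it. Of the probes, 0 of any arm had all bicuculline arrays above all control arrays, against 30 of the 1857 on the array (1.62%). Bicuculline and NMDA were compared with the same 3 control arrays, so the differences are not independent of each other.

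Some sequence features of the 5p arms recurred among other miRNAs raised by NMDA. The letters UGUGUGUG, read on the miRNA itself, occur in 4 of the 163 matched miRNAs (2.45%), and GGGG in 15 (9.2%). With 163 of 611 names matched, these counts hold for the matched miRNAs alone, and a check over the whole array is void. The capitals mark the letters searched in the members of these lists that could be compared after NMDA and stood beside the 5p arms:
miR-1187: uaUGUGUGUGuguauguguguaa
miR-705: ggugggagguGGGGugggca
miR-1892: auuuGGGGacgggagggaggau
miR-342-5p: aGGGGugcuaucugugauugag

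Of the UGUGUGUG list, 2 could be compared after NMDA and both were raised over 1.2-fold, miR-574-5p and miR-1187. miR-1187 had signals of 3.87%, 3.79% and 5.02% on the control arrays and 36.3%, 58.4% and 57.4% on the NMDA arrays, with a log2 difference of 2.64. It shares a run of 11 bases with miR-574-5p, the longest that any matched miRNA shares with it, where the median is 3 bases. Whether the probes of either hybridize RNA of the other was not tested. For miR-574-3p, miR-671-5p and miR-671-3p the longest shared runs were 8, 8 and 7 bases.

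Of the GGGG list, 4 could be compared and 3 were raised, miR-671-5p, miR-705 with a log2 difference of 0.92 and miR-1892 with 0.71, while miR-342-5p had −0.05. The mean signal of miR-705 was 1.32% ± 0.88 (SD, n = 3) on the control and 15.3% ± 3.3 (SD, n = 3) on the NMDA arrays. That of miR-1892 was 6.51% ± 0.74 (SD, n = 3) and 13% ± 0.53 (SD, n = 3). Over all 40 matched miRNAs compared, 10 were raised and 1 was lowered, with a median log2 difference of −0.0075. After bicuculline, 0 of the 2 GGGG miRNAs that could be compared were raised, and 0 of the UGUGUGUG list could be compared. The raised members of both lists were well above background on 0 or 1 control arrays and on all 3 NMDA arrays. They could thus be compared only through the NMDA arrays, which favours a rise. miR-342-5p was well above background on all 3 control arrays too. The lists hold the 5p arms and were chosen with the NMDA values known, so their counts are no independent evidence of a direction.

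The 5p arms resembled each other more than any other miRNA across the arrays. Over the 9 arrays, the log2 levels of miR-574-5p and miR-671-5p had a Pearson correlation of 0.997, and each was the most like the other among the 181 miRNAs. The next were the same 4 for both and in the same order. With miR-574-5p, miR-1904 had r = 0.991, miR-1892 0.988, miR-1187 0.988 and miR-467f 0.986, and with miR-671-5p these were 0.984, 0.984, 0.983 and 0.979. The median over all miRNAs was −0.025 for miR-574-5p and −0.040 for miR-671-5p. The 9 points share the split between NMDA and the other groups, the array scale and the floor, and the values carry no test.

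The mean signal of miR-1904 was 7.84% ± 1.22 (SD, n = 3) on the control, 22.9% ± 3.92 (SD, n = 3) on the NMDA and 7.56% ± 0.67 (SD, n = 3) on the bicuculline arrays. miR-467f had 4.35% ± 1.59 (SD, n = 3), 39.6% ± 10.69 (SD, n = 3) and 4.29% ± 0.49 (SD, n = 3) in the same groups. For both, the NMDA arrays lay apart from the control and bicuculline arrays, which overlapped.

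**Figure D4:**
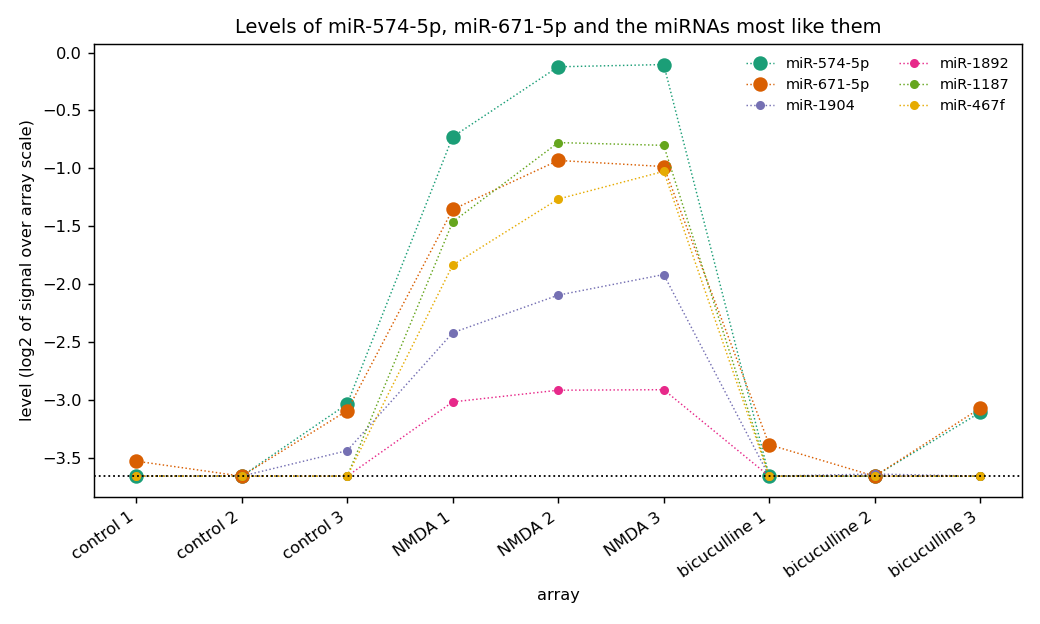
Log2 level relative to the array scale (y axis) of miR-574-5p and miR-671-5p (large points) and of the miRNAs most correlated with them (small points) on each array (x axis). Dotted lines join the points of a miRNA as a guide and the horizontal dotted line is the floor. All 6 are highest on the 3 NMDA arrays, and 3 of them sit at the floor on all control and bicuculline arrays.

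The values of the arms depend on how the array is summarized, and the size of the NMDA difference more than its direction. In the authors' own table of log2 values, miR-574-5p had 7.39, 7.42 and 7.64 on the control arrays and 8.47, 8.85 and 8.89 on the NMDA arrays, a difference of 1.25. miR-671-5p had 7.48, 7.43 and 7.64 against 8.15, 8.36 and 8.41, a difference of 0.79. miR-574-3p had 6.96, 7.08 and 6.94 against 7.14, 7.23 and 7.34, a difference of 0.24 without overlap, where 46 of 645 miRNAs had all NMDA arrays above all control arrays (7.13%). miR-671-3p differed by −0.0033. The array medians of that table lay between 7.06 and 7.08, and its values correlated with the scanner levels at r between 0.974 and 0.978. Its values are labelled as log2 intensity, and the NMDA differences of both 5p arms had the same sign as in the reported values. The small bicuculline difference of miR-671-5p did not, at −0.037 against 0.05. The offset and centring behind the authors' values are not given in the sources used here.

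The total gene signal of the scanner software, a summary over the probes of an miRNA, gave log2 differences of 1.05 for miR-574-5p and 0.66 for miR-671-5p. On the NMDA arrays it equalled the sum of the probe totals for both 5p arms. On control replicate 1, control replicate 2 and bicuculline replicate 1, all on the first slide, it was 9.7, 9.14 and 9.37 times that sum for miR-574-5p, and 5.57, 7.34 and 5.73 times for miR-671-5p. On the arrays of the second slide the ratio was 1 or, for miR-671-5p on bicuculline replicate 2, 0.86. The second slide was read with another version of the software, and slide and version cannot be told apart. For control replicate 1 the total gene signal of miR-574-5p was 394.0 against 40.6 for the sum, above the 334.4 of NMDA replicate 1.

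**Figure D5:**
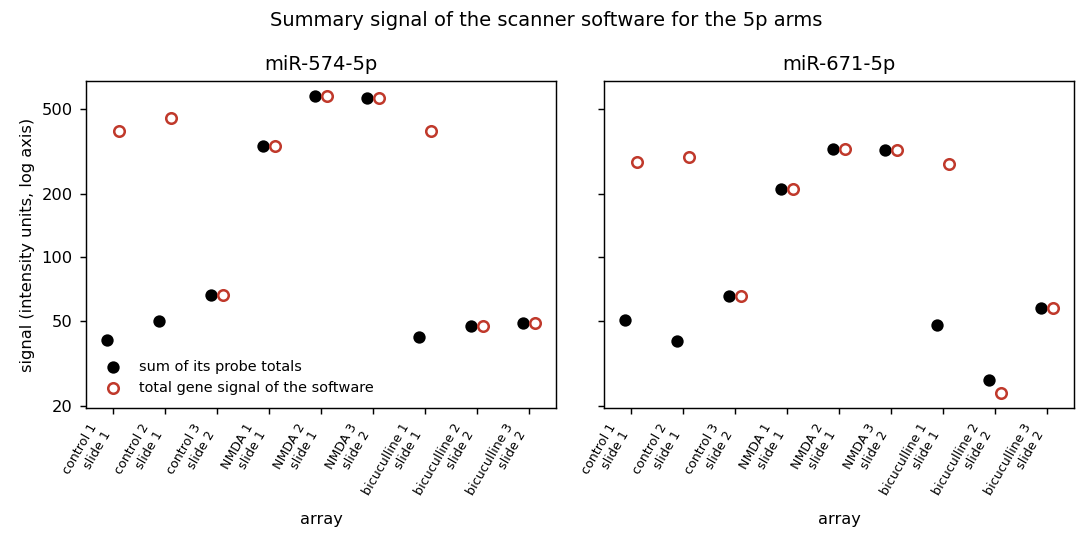
Total gene signal of the software (open points) and sum of the probe totals (filled points) of miR-574-5p and miR-671-5p, in intensity units on a log axis, on each array with its slide (x axis). The summaries coincide on the NMDA arrays and part by 5.57 to 9.7 times on the control and bicuculline arrays of the first slide.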

How the data were processed

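Total RNA of 9 cultures was labelled with Cy3 and hybridized to single-colour Agilent mouse miRNA arrays. The authors deposited the scanner output, with spot intensity after background subtraction by Feature Extraction (10.7.1.1 on 1 slide, 10.7.3.1 on the other), and a table of log2 values of their own making. Of 13715 spots, 13000 were not controls. They form 1857 probes for 650 miRNAs, 611 of mouse and 39 viral. Over the 9 arrays 3278 spots marked as outliers were left out and 0 were saturated. Spot means per probe were put relative to the 75th percentile, taken on each array over the 265 probes detected throughout, raised to at least 7.94% of it and log2-transformed, with the brightest probe standing for its miRNA. limma 3.58.1 (R 4.3.3) compared bicuculline with control arrays, two-sided and without covariates, with Benjamini-Hochberg adjustment and a threshold of 0.05. Tested on simulated data of 161 miRNAs, of which 20 carried a log2 change of 1, this step found 100% of the changed ones, and 3.29% of its calls were false. The simulation gave all miRNAs normal errors with 1 SD of 0.14, and it had no floor and no difference between slides. It therefore does not show how well a change of miR-671-5p, or one of 1.2-fold, would be found. Arm ratios were tested by exact permutation. The arms and all lists were chosen with earlier results of these data known. The miRNAs named are the 4 arms, the 5 most correlated with each 5p arm, the 3 hairpins of largest ratio change, up to 5 of each sequence list and the cell type markers, and others were named after their values were seen. Alternatives were other scalings, summaries, floors and filters, normexp with an offset of 50 on the median spot signal, the authors' table, blocks for replicate number and slide, a fit that pooled the spread of all groups, the methods' t-test and leaving out each array.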

Additional observations from a re-analysis of the deposited data

How the results depend on the processing

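The NMDA differences of both 5p arms stayed above 0 under every alternative run, from 1.05 to 3.34 for miR-574-5p and from 0.66 to 2.50 for miR-671-5p (log2). Leaving out each array gave 3.02 to 3.34 and 2.22 to 2.50. With the 3p arms at the floor on every array, their difference stays 0 and the arm ratios repeat the 5p values by construction. normexp gave 2.07 and 1.5 for the 5p arms, the total gene signal gave 1.05 and 0.66, and in the authors' table they were 1.25 and 0.79. Scaling to all probes gave 1.90 for miR-671-5p and its arm ratio and moved the median of all miRNAs to −0.43, against −0.01 in the reported values and −0.12 under quantile normalization. For miR-574-3p the NMDA difference was 0.12 with the floor halved, 0.34 with normexp, 0.29 with total gene signal and 0.24 in the authors' table, and for miR-671-3p it was −0.050 with normexp and −0.0033 in the authors' table. The NMDA change of the arm ratio was 1.73, 0.76 and 1.01 for miR-574 and 1.55, 0.66 and 0.79 for miR-671 under normexp, total gene signal and the authors' table. The cause was not tested, beyond the total gene signal, which on 3 arrays of the first slide exceeded its own probes.

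For bicuculline, miR-671-5p passed the threshold under 0 of the alternatives that gave it an adjusted p. miR-574-5p had such a p only with no filter, the 3p arms had none, and the permutation test of the arm ratios cannot reach the threshold. Without 1 array the difference lay between −0.21 and 0.18 for miR-574-5p and between −0.10 and 0.22 for miR-671-5p. Again the floored 3p arms stay at 0 and the arm ratios repeat the 5p values by construction. miR-671-5p was −0.12 with the floor halved, −0.98 with total gene signal, −0.037 in the authors' table and −0.033 with the slide as a block, with limma adjusted p between 0.807 and 1 in these fits, and miR-574-5p was −0.90 with total gene signal. The arm ratio of miR-574 was 0.031 with the floor halved, 0.042 with all probes as the scale, 0.036 with quantile normalization and 0.020 in the authors' table. That of miR-671 was −0.12 with the floor halved, −0.18 with normexp, −0.98 with total gene signal and −0.093 in the authors' table. With normexp and the authors' table, miR-574-3p was 0.088 and 0.010, and miR-671-3p 0.19 and 0.057. limma called 1 miRNA in the reported fit, 0 with quantile normalization, the mean of all probes, total gene signal, no filter or measurement on all 9 arrays required, and 0 to 1 without 1 array, with 0 without bicuculline replicate 1 or 2. The methods' t-test called 0 after adjustment and 4 before it. The NMDA count of 18 raised became 5 among miRNAs measured on all 9 arrays, a filter that no arm passed, and 17 to 25 without 1 array.

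Same-numbered arrays deviated together with correlations of 0.36, 0.76 and 0.63 for NMDA and control, and of 0.59, 0.08 and 0.72 for bicuculline and control, where the pair at 0.08 lay on different slides. The numbers were thus not taken to pair the bicuculline and control arrays, of which 4 of 6 were most like their own number. For NMDA and control it was 6 of 6. With the replicate number as a block, miR-671-5p stayed at 0.05 (limma adjusted p = 0.994) and 2 miRNAs were called in place of 1. The 3p arms were under the floor on all arrays and the 5p arms near it in control neurons. With the floor halved, the NMDA difference rose from 3.13 to 3.29 for miR-574-5p and from 2.33 to 2.41 for miR-671-5p. The bicuculline difference changed sign, from −0.02 to 0.031 for miR-574-5p and from 0.05 to −0.12 for miR-671-5p. In the floored log2 values a change of a 3p arm could not be seen. In the signals without the floor, all 4 probes of miR-574-3p had higher means after NMDA than in control neurons, 1 of them without overlap.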

Other observations

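The gap between the total gene signal and its own probes was not particular to these arms. Among the miRNAs the software marked as detected, 47 to 57 on each array of the first slide had a total gene signal over 2 times the sum of their probe totals, against 0 or 1 on each array of the second slide. For miR-574-3p, the software marked the miRNA as detected on NMDA replicate 3 only, and miR-671-3p on 0 of the 9 arrays. The brighter probe of miR-574-5p read 1.9 ± 0.010 (SD, n = 3) times its dimmer probe on the NMDA arrays and 1.56 ± 0.13 (SD, n = 3) times on the control arrays.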
